A study of Mus musculus with 12 samples.

Results

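The 10 genes described here, Ifit1, Ifit2, Ifit3, Mx1, Mx2, Isg15, Usp18, Rsad2, Bst2 and Xaf1, are antiviral effector genes of the interferon response. Mx1 and Mx2 are annotated as transcribed pseudogenes in C57BL/6. The 10 genes were taken by name, with earlier results of these data known. All 10 were present among the 32416 gene symbols of the expression table. The table holds 12 bulk RNA libraries of tumours that B16 cells, a mouse melanoma line, formed under the skin of C57BL/6 mice. The tumours over-expressed Aoah, which encodes the lipase acyloxyacyl hydrolase, or carried the Vector control. The B16F10 model gave 2 Aoah and 2 Vector tumours, whose mice received antibodies to PD1 and to CTLA4, the first dose on day 6 after inoculation. The B16mhgp100 model gave 4 Aoah and 4 Vector tumours, whose mice received the antibody to PD1, the first dose on day 10. Every mouse received checkpoint antibody, at 200 µg of each antibody per dose and 2 doses a week up to 4 doses, and the harvest followed 1 day after the final dose. No untreated arm is among these libraries. Cell line, antibodies and start of treatment differ together between the models and cannot be told apart. The labels do not state that each library is from its own mouse, and the p-values therefore cover the spread among these libraries alone.

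Cells that sense viral nucleic acid secrete type I interferon, which acts through its receptor and the kinases JAK1 and TYK2 to assemble the transcription factor complex ISGF3. ISGF3 binds interferon-stimulated response elements (ISRE) in the promoters of antiviral genes. Interferon-gamma, made by T cells and NK cells, acts at gamma-activated sites (GAS) and induces an overlapping set of genes. In tumours, genes of this set are read both as a sign of nucleic acid sensing and of T cell activity. IFIT proteins bind viral RNA and translation factors. MX proteins are dynamin-like GTPases. ISG15 is a ubiquitin-like modifier that USP18 removes from its targets, and USP18 also blocks signalling at the type I receptor. RSAD2, or viperin, is a radical SAM enzyme that makes a chain-terminating nucleotide. BST2, or tetherin, holds budding virions at the cell surface. XAF1 antagonises XIAP, an inhibitor of caspases.

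The promoters are shown to set the shared response element beside the values that follow. RefSeq promoter windows of build GRCm38.p6 were matched for 7 of the 10 genes, Ifit2 with more than 1 window. Mx1, Mx2 and Usp18 had no entry. The ISRE core was searched on both strands as GAAA followed by GAAA, with any 2 bases between them. It lay in the 200 bases before the start of 5 of the 7 genes, Ifit1, Ifit3, Isg15, Rsad2 and Bst2, and was not matched in the windows of Ifit2 and Xaf1. Of all 32851 windows of 200 bases, 2.27% held a match. Capitals mark the ISRE letters in these sequences, which are written 5′ to 3′ on the strand of the gene.
Ifit1 (chr19:34640689-34640888, plus strand): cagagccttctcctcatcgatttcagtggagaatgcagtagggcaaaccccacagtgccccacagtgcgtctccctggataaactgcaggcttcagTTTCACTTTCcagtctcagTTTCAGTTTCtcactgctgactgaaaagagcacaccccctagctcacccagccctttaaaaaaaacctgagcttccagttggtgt
Ifit3 (chr19:34583329-34583528, plus strand): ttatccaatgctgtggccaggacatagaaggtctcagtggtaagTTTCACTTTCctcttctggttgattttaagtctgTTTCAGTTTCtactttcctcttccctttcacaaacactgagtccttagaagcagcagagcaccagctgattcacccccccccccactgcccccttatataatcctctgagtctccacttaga
Isg15 (chr4:156200819-156201018, minus strand): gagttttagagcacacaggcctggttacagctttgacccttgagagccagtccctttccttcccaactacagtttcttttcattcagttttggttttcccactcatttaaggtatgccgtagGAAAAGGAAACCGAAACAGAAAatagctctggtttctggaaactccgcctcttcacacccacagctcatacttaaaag
Bst2 (chr8:71537473-71537672, minus strand): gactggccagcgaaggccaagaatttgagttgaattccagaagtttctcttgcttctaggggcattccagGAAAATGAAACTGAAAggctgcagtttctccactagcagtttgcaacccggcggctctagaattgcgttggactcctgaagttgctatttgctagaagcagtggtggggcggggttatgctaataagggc
Xaf1 (chr11:72301429-72301628, plus strand): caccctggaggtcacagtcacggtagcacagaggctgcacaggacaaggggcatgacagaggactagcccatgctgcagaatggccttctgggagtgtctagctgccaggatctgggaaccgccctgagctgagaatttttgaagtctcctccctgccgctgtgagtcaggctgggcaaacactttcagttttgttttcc
Ifit1 and Ifit3 carried the same pair of matches, TTTCACTTTC and TTTCAGTTTC, which are ISRE cores read from the other strand. They began 104 and 85 bases before the start of Ifit1, and 156 and 122 bases before the start of Ifit3. In Isg15, 3 overlapping matches began 78, 72 and 66 bases before the start, and in Bst2 an overlapping pair began at 130 and 124 bases. The GAS letters, TTC and GAA with any 3 bases between them, were found in 5.49% of all 200-base windows and, among these genes, before the start of Bst2, where TTCCAGGAA shared 3 bases with the first ISRE match. A match is a description of the letters and not a measured binding site.

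Expression is given in TPM, a transcript abundance scaled for transcript length and library total, so that levels of different genes can be set side by side. TPM keeps no read depth, and depth per library is unknown. Aoah itself stood at 21.75 and 23.73 TPM in the B16F10 Aoah libraries, against 1.49 and 0.75 TPM in the B16F10 Vector libraries. In B16mhgp100 it stood at 17.92, 22.46, 13.96 and 3.91 TPM in Aoah 1 to Aoah 4, against 7.58, 0.89, 2.43 and 1.57 TPM in Vector 1 to Vector 4. The library labelled B16mhgp100 Aoah 4 thus lay among the Vector values, and the main B16mhgp100 counts and medians of the 10 genes and of the pathway lists are given also without it. Its summed keratinocyte and skeletal muscle markers were the highest of the B16mhgp100 Aoah libraries, at 4232 and 3287 TPM. In the B16mhgp100 Vector libraries the same sums reached at most 22.96 and 575.8 TPM. The 7 melanoma cell markers, all above 0 in every library, summed to 7802 TPM in Aoah 4, the lowest of the Aoah libraries of the model, against 17330 to 28470 TPM in the Vector libraries. Pmel, Tyr, Tyrp1, Sox10 and Mitf were lowest in Aoah 4 among those Aoah libraries. Mlana was highest there, at 1663.0 TPM, and Dct, at 3739.5 TPM, lay above Aoah 2, at 3509.86 TPM.

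In B16F10, Bst2 was higher in Aoah than in Vector tumours and was the single antiviral gene to pass the test. Usp18, Ifit3, Xaf1 and Isg15 had differences of like size that did not pass, and Ifit1 lay on the other side of 0. The comparison asks how over-expression of Aoah changes the tumour transcriptome. In limma on log2(TPM + 1), with Benjamini-Hochberg adjustment over all genes, 1 of the 10 passed an adjusted p of 0.05, against 0.344% of the 14533 genes tested. At an unadjusted p under 0.05 there were 6 of 10, against 2642 of the 14533 genes. The log2 difference was above 0 for 9 of 10, with a median of 0.95, against 0.02 over all genes tested. In 7 of the 10 both Aoah libraries lay above both Vector libraries, which held for 28% of all genes, and in none of the 10 below both, which held for 22.6%. Exact permutation of 2 against 2 libraries cannot go below p = 0.333. These are bulk samples, in which fewer cells of a type and less RNA per cell cannot be told apart.

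**Figure D1:**
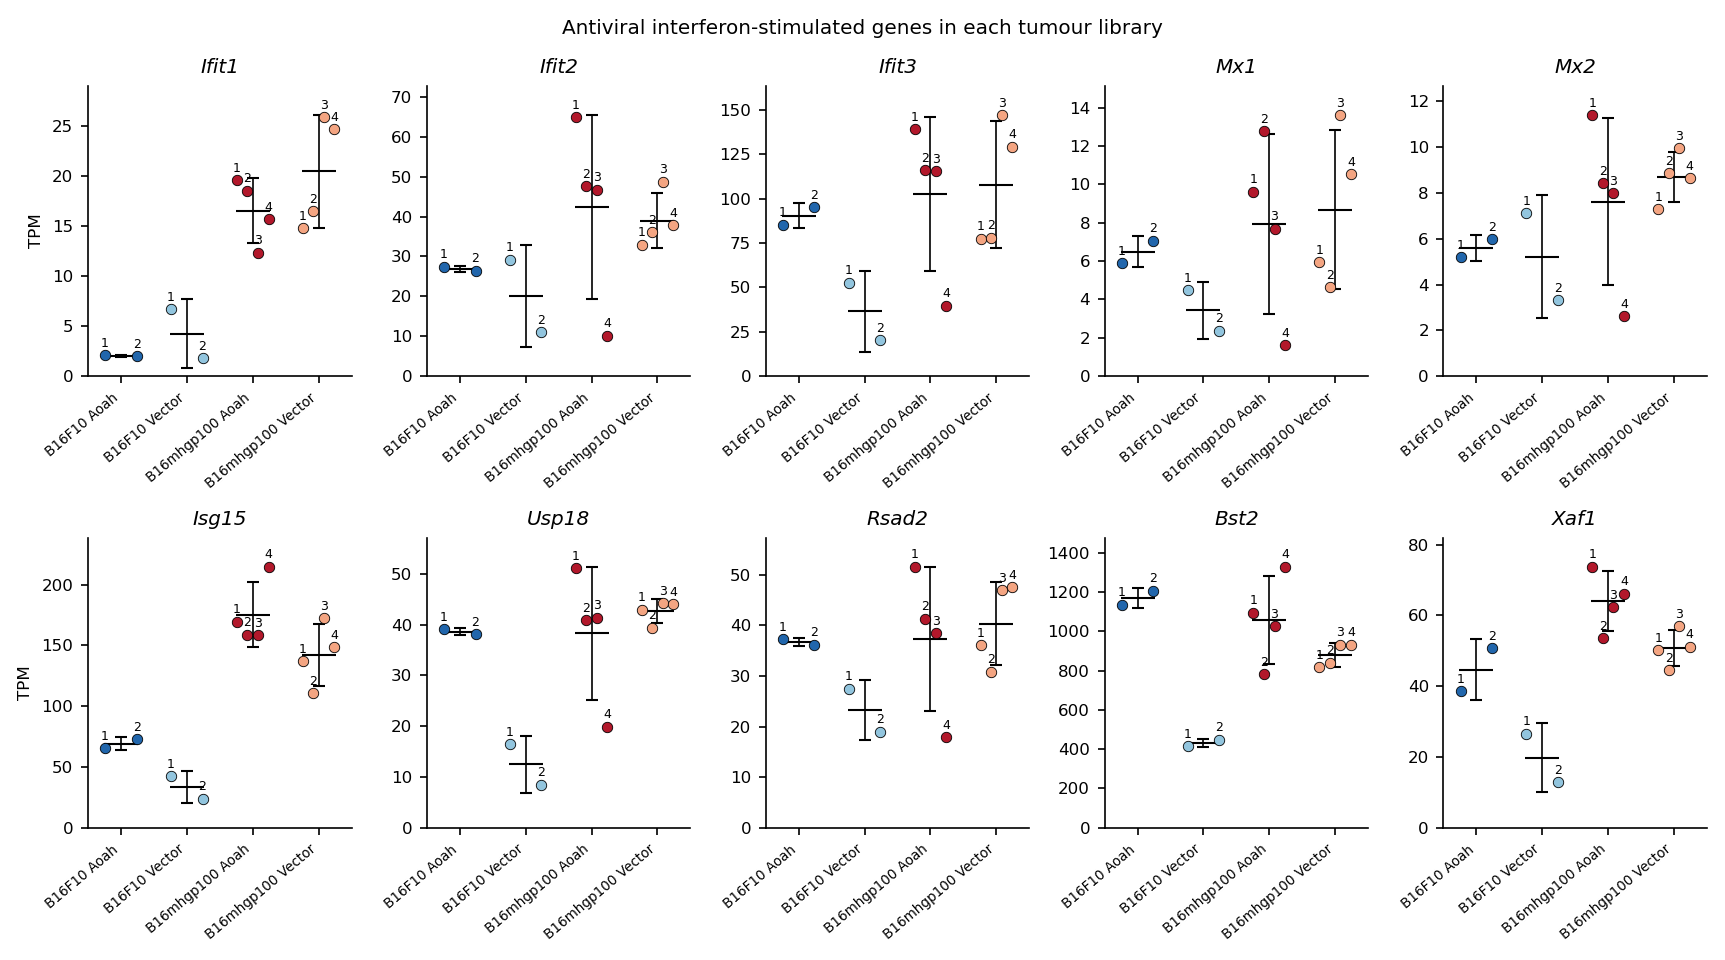
TPM (linear axes from 0) of each antiviral gene in each of the 12 libraries, coloured by group and numbered by replicate, with the group mean and SD as black bars. In B16F10 Bst2 lay at 1135.27 and 1206.42 TPM in Aoah tumours, above 416.17 and 447.53 TPM in Vector tumours, and in B16mhgp100 the Aoah 4 library lay lowest of its model for 6 genes and highest for Isg15 and Bst2.

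Bst2, the gene for tetherin, was the most abundant member in every library, at 61.1% to 81.3% of the summed TPM of the 10 genes. It stood at 1135.27 and 1206.42 TPM in B16F10 Aoah tumours, against 416.17 and 447.53 TPM in B16F10 Vector tumours. The groups were far apart and each pair of libraries lay close together. Bst2 rose by a log2 difference of 1.44 (SE 0.14, limma adjusted p = 0.0384). The adjusted p was 0.237 with no filter on low values, 0.0552 after median-of-ratios scaling and 0.0765 without the intensity trend in limma.

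ISG15 and its protease came next. Isg15 stood at 65.61 and 72.87 TPM in Aoah tumours, against 42.39 and 23.74 TPM in Vector tumours of B16F10. The groups did not overlap, and the Vector libraries differed more between themselves than the Aoah libraries. In limma the difference was 1.10 on the log2 scale (SE 0.30, adjusted p = 0.162). Usp18 stood at 39.04 and 38.11 TPM in Aoah tumours, against 16.40 and 8.49 TPM in Vector tumours. Its log2 difference of 1.62 (SE 0.33, limma adjusted p = 0.112) was the largest of the 10. The ratio of Isg15 to Usp18 was 1.68 to 1.91 in Aoah tumours and 2.58 to 2.80 in Vector tumours. Beside them stand the enzymes that attach ISG15. Ube2l6, the E2 enzyme that carries ISG15, stood at 160.83 and 159.65 TPM in Aoah tumours, against 43.42 and 34.30 TPM in Vector tumours. It rose by a log2 difference of 2.03 (SE 0.18, limma adjusted p = 0.0343). Uba7, the E1 enzyme, had 1.24 (SE 0.19, limma adjusted p = 0.0739). Herc6, which in mouse takes the role of the main ISG15 ligase, had a log2 difference of 0.96, and Trim25, a further ligase, had 0.46. Of these 4 genes all were above 0 and 1 passed.

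The IFIT genes had unequal differences. Ifit3 stood at 85.44 and 95.29 TPM in B16F10 Aoah tumours, against 52.77 and 20.38 TPM in B16F10 Vector tumours. The groups did not overlap, and the difference of 1.43 in log2 had an SE of 0.44 and a limma adjusted p of 0.191. Ifit1 stood at 2.11 and 1.98 TPM in Aoah tumours, against 6.70 and 1.80 TPM in Vector tumours. Here the groups overlapped, with Vector 1 well above the other 3 libraries, and the difference in log2 was -0.61 (SE 0.51, limma adjusted p = 0.574). Ifit2 stood at 27.40 and 26.41 TPM in Aoah tumours, against 29.15 and 10.97 TPM in Vector tumours, and overlapped as well. Ifit1 amounted to 2.08% to 2.47% of Ifit3 in Aoah tumours and to 8.83% to 12.7% in Vector tumours. The promoters of both carry the same pair of ISRE letters. Ifit3b, a close paralogue of Ifit3, stood at 15.94 and 18.25 TPM in Aoah tumours, against 13.79 and 5.86 TPM in Vector tumours. RSEM shares reads between such copies, so the split between Ifit3 and Ifit3b, and among the Ifit1 copies, is uncertain.

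**Figure D2:**
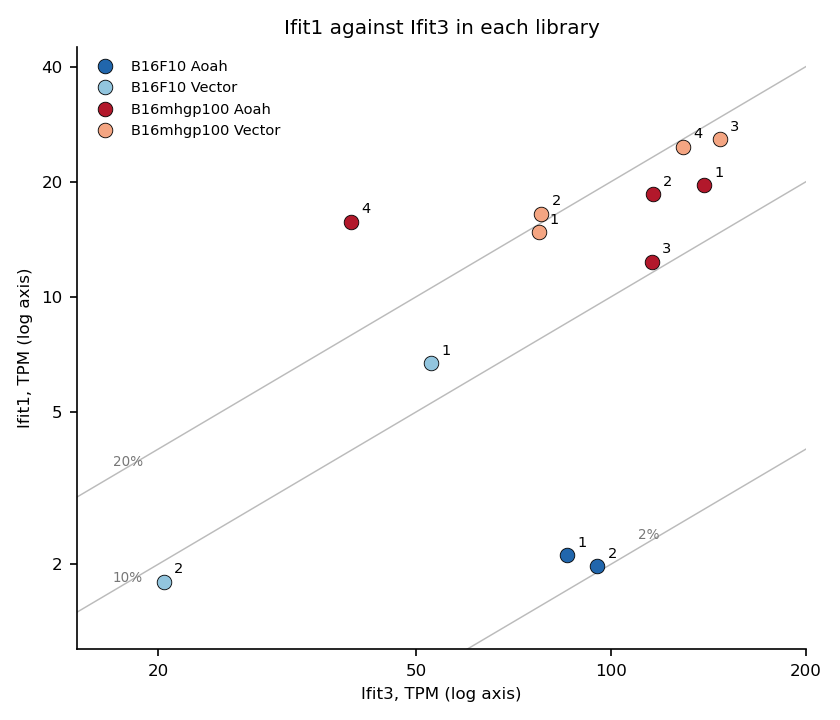
Ifit1 against Ifit3, in TPM on log axes, for each of the 12 libraries, coloured by group and numbered by replicate; grey lines mark Ifit1 at 2%, 10% and 20% of Ifit3. Both B16F10 Aoah libraries lay near the 2% line, the B16F10 Vector libraries near 10%, and the B16mhgp100 libraries above 10%, with Aoah 4 alone at 39.6%.

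The remaining members were Rsad2, Xaf1, Mx1 and Mx2. Rsad2 stood at 37.30 and 36.23 TPM in B16F10 Aoah tumours, against 27.50 and 19.01 TPM in Vector tumours (log2 difference 0.66, SE 0.24, limma adjusted p = 0.241). Xaf1 stood at 38.55 and 50.73 TPM in Aoah tumours, against 26.60 and 12.85 TPM in Vector tumours (log2 difference 1.21, SE 0.37, limma adjusted p = 0.192). Neither pair of groups overlapped. Mx1 stood at 5.91 and 7.06 TPM in Aoah tumours, against 4.48 and 2.38 TPM in Vector tumours. Mx2 stood at 5.20 and 5.99 TPM in Aoah tumours, against 7.11 and 3.31 TPM in Vector tumours. Mx1 did not overlap and Mx2 did, and neither passed. In the RefSeq annotation of C57BL/6, both Mx1 and Mx2 are transcribed pseudogenes, so the values give RNA and no statement on protein.

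The spread in B16F10 came largely from the Vector pair. Vector 2 was below Vector 1 for 9 of the 10 genes, and the exception was Bst2. Without Vector 1, 8 of 10 members passed in limma, all but Ifit1 and Mx2, where 3108 of 14055 genes passed. The median of the members was then 1.30, against 0.15 over all genes. Without Vector 2, 6 passed, where 3242 of 14073 genes passed, and Ifit1 was among them as lower in Aoah tumours (log2 difference -1.34, adjusted p = 0.0193). The median was then 0.57, with 7 of 10 above 0, against -0.11 over all genes. These fits assume that a lone Vector library varies like the Aoah libraries, whose spread was small. The fits with Aoah 1 or Aoah 2 left out likewise rest on a lone Aoah library. The median of the members was 1.04 without Aoah 1, against 0.05 over all genes. Without Aoah 2 it was 0.85, against -0.01 over all genes. The Bst2 difference lay between 1.385 and 1.489 whichever B16F10 library was left out. In the authors' deposited table, made with DESeq2, 5 members passed in B16F10, against 8.53% of its genes. These were Bst2 (log2 fold change 1.41, adjusted p = 2.04e-08), Usp18 (1.65, adjusted p = 4.08e-05), Ifit3 (1.34, adjusted p = 0.00379), Xaf1 (1.19, adjusted p = 0.0181) and Isg15 (1.08, adjusted p = 0.0237). In the same authors' deposited table Rsad2 had an adjusted p of 0.0538, and Ifit1 an adjusted p of 0.384.

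**Figure D3:**
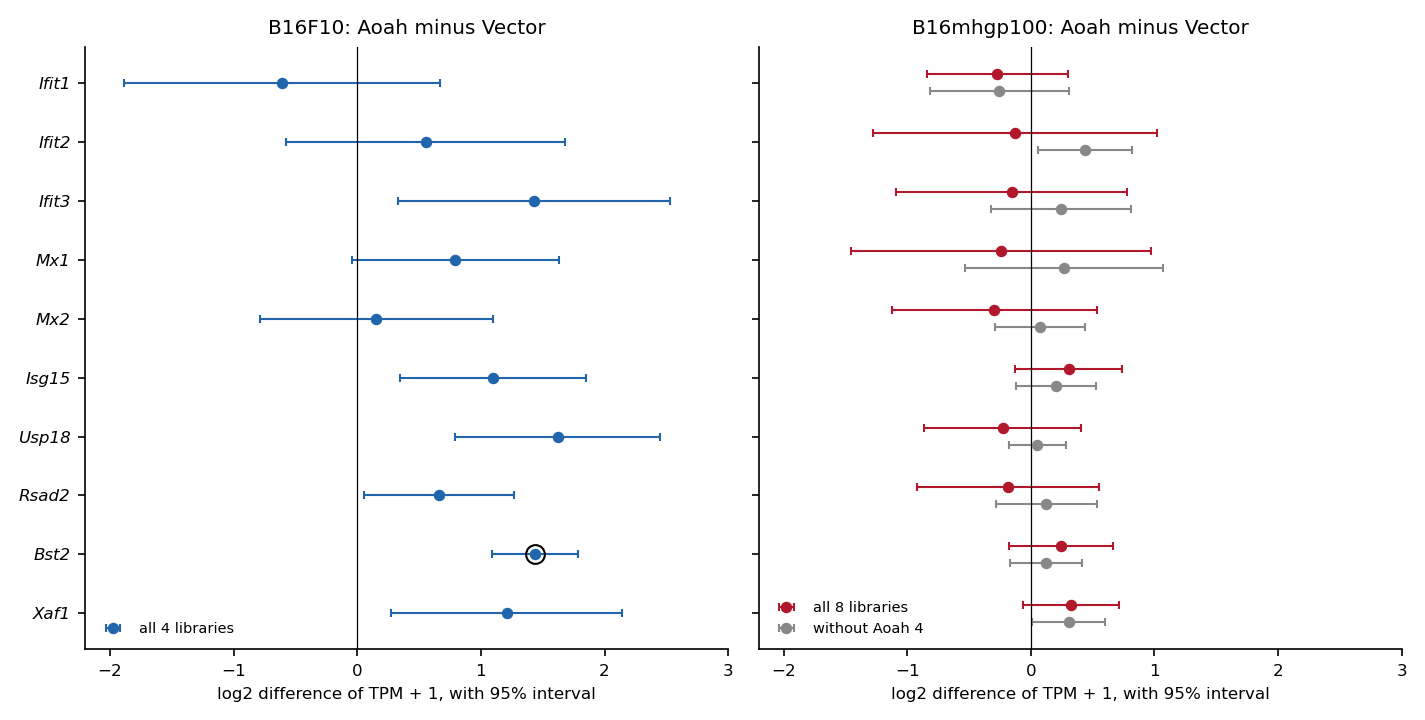
Log2 difference of TPM + 1, Aoah minus Vector, with 95% intervals from limma, for each antiviral gene in B16F10 (left) and in B16mhgp100 (right, all 8 libraries in red and without Aoah 4 in grey); a black ring marks an adjusted p below 0.05. Bst2 in B16F10, at 1.44, carries the single ring, and in B16mhgp100 every interval of all 8 libraries spans 0.

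Marker sums of several cell types differed without overlap in B16F10. Of all single genes tested there, 28% were higher and 22.6% lower in Aoah tumours without overlap. The summed TPM of 4 leukocyte markers was 233.7 to 256.4 in Aoah tumours and 85.48 to 90.72 in Vector tumours. The sum of 7 T cell markers was 56.91 to 71.12 TPM in Aoah tumours and 2.78 to 9.08 TPM in Vector tumours. That of 9 macrophage and monocyte markers was 884.4 to 985.3 TPM in Aoah tumours and 487.0 to 522.0 TPM in Vector tumours. C1qa held the largest part, at 397.3 and 329.89 TPM in Aoah tumours and 159.38 and 167.58 TPM in Vector tumours. Mrc1 went the other way, at 5.96 and 7.86 TPM in Aoah tumours and 18.86 and 11.35 TPM in Vector tumours. Csf1r and Ccr2 overlapped between the groups, and the remaining markers of that list were higher without overlap. Every marker of these 3 lists was above 0 in every library. The sum of 4 NK cell markers was 4.21 to 7.05 TPM in Aoah tumours and 0.84 to 1.61 TPM in Vector tumours. The 7 melanoma cell markers summed to 28250 to 29290 TPM in Aoah tumours and 18540 to 21780 TPM in Vector tumours. Pmel made most of that difference, at 15880.78 and 14592.1 TPM in Aoah tumours and 7197.31 and 8252.31 TPM in Vector tumours. Tyr, Tyrp1 and Sox10 were higher without overlap. Mlana, Dct and Mitf overlapped between the groups, and Mlana and Mitf had lower means in Aoah tumours. Lower in Aoah tumours was the sum of 4 endothelial markers, at 32.53 to 35.85 TPM, against 55.6 to 68.08 TPM in Vector tumours. Of these, Vwf went the other way, at 15.87 and 14.93 TPM in Aoah tumours and 13.01 and 7.34 TPM in Vector tumours. The sum of 5 fibroblast markers was also lower, at 102.3 to 157.7 TPM, against 266.2 to 333.6 TPM in Vector tumours. Bst2 is also a marker of plasmacytoid dendritic cells in mouse. The other markers of these cells summed to 44.76 to 55.74 TPM in Aoah tumours and 33.32 to 39.08 TPM in Vector tumours. Nearly all of that was Tcf4, which other cells express too, at 52.76 and 43.38 TPM in Aoah tumours and 31.88 and 35.93 TPM in Vector tumours. Ccr9, Spib and Cox6a2 overlapped between the groups. Siglech, which defines these cells, overlapped as well. It was at 0.43 and 0.34 TPM in Aoah tumours and at 0.48 and 0.17 TPM in Vector tumours. The part of these cells in the difference of the antiviral genes was not tested.

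In B16mhgp100 no antiviral gene passed the test between Aoah and Vector tumours. In limma 0 of 10 members passed, against 0% of the 14228 genes tested. At an unadjusted p under 0.05 there were 0 of 10, against 350 of the 14228 genes. The log2 difference was above 0 for 3 of 10, with a median of -0.17, against -0.20 over all genes tested. After median-of-ratios scaling the median of all genes was -0.02 and that of the 10 members 0.03. The groups overlapped for all 10, while 0.731% of all genes had every Aoah library above every Vector library and 5.15% had every one below. Immune markers overlapped as well, with T cell sums of 11.27 to 17.64 TPM in Aoah tumours and 6.93 to 22.30 TPM in Vector tumours. In the authors' deposited table for B16mhgp100, 0 members passed, against 0.0146% of its genes.

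The largest of these differences was for Xaf1. It stood at 73.82, 53.50, 62.41 and 66.16 TPM in B16mhgp100 Aoah 1 to Aoah 4, against 50.10, 44.56, 56.99 and 51.17 TPM in Vector 1 to Vector 4. All Aoah libraries but Aoah 2 lay above all Vector libraries. Xaf1 had a log2 difference of 0.33 (SE 0.17, limma adjusted p = 0.694). An exact 2-sided permutation test over 70 arrangements gave p = 0.0571, where the smallest possible is 0.0286. Isg15 stood at 169.41, 158.74, 158.58 and 214.92 TPM in Aoah tumours, against 136.81, 110.58, 172.62 and 148.59 TPM in Vector tumours (log2 difference 0.31, SE 0.19, exact permutation p = 0.143). Bst2 stood at 1094.66, 781.84, 1027.63 and 1330.15 TPM in Aoah tumours, against 816.09, 839.96, 932.08 and 932.69 TPM in Vector tumours (log2 difference 0.24, SE 0.18, exact permutation p = 0.2). For both genes Aoah 4 was the highest library and the groups overlapped.

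The other 7 genes had differences below 0, and for 6 of them Aoah 4 was the lowest library of the model. Usp18 stood at 51.05, 40.86, 41.38 and 19.87 TPM in B16mhgp100 Aoah tumours, against 42.95, 39.38, 44.27 and 44.07 TPM in Vector tumours. Ifit3 stood at 139.28, 116.06, 115.62 and 39.65 TPM in Aoah tumours, against 77.46, 77.97, 147.19 and 129.28 TPM in Vector tumours. In both the last Aoah value is by far the lowest of the model, and the same held for Ifit2, Mx1, Mx2 and Rsad2. Ifit2 had 10.15 TPM in Aoah 4, against 32.92 to 64.97 TPM in the other 7 libraries of the model. Ifit1 did not share this. It stood at 19.60, 18.53, 12.35 and 15.71 TPM in Aoah tumours, against 14.76, 16.49, 25.88 and 24.70 TPM in Vector tumours (log2 difference -0.27, SE 0.25, exact permutation p = 0.257). Without Aoah 4 the difference was above 0 for 9 of 10, all but Ifit1, with a median of 0.17, against -0.03 over all genes. Still 0 passed in limma. Of the 10, 2 stood under an unadjusted p of 0.05, Ifit2 (log2 difference 0.44) and Xaf1 (0.31). Over all genes of that fit, 1156 of 13962 did.

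The deviation of Aoah 4 was uneven over the genes and can be set beside transcript length. Over the tested genes with an annotated transcript length, Aoah 4 deviated from the median of the other 7 B16mhgp100 libraries by a median log2 of -0.18 among the shortest transcripts, of 107 to 2293 nt, -0.88 among those of middle length and -1.14 among the longest, of 4060 nt and over. The classes held 4541, 4539 and 4540 genes. Isg15 and Bst2, with longest annotated transcripts of 756 and 792 nt, deviated by 0.44 and 0.51. Ifit2 and Mx1, of 3818 and 3385 nt, deviated by -2.10 and -2.02. Length did not order the members fully. Ifit3, of 1745 nt, deviated by -1.53, while Xaf1 and Ifit1, of 2597 and 2656 nt, deviated by 0.30 and -0.23. The part of RNA quality in these values was not tested.

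**Figure D4:**
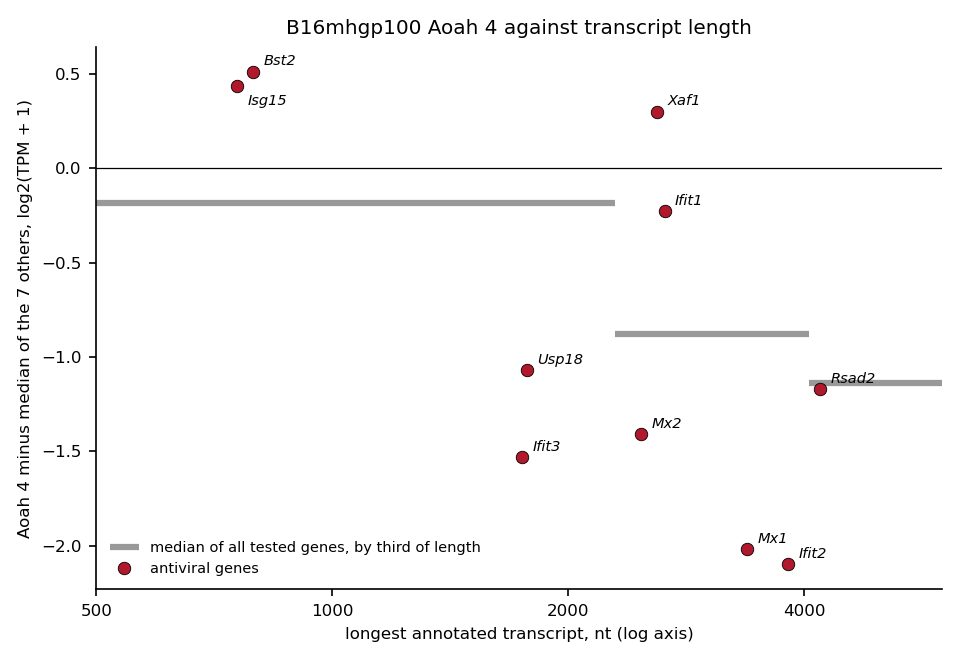
Deviation of the library B16mhgp100 Aoah 4 from the median of the other 7 libraries of the model, in log2(TPM + 1), against the longest annotated transcript of each antiviral gene in nt (log axis); grey bars are medians of tested genes with an annotated length, in 3 classes of length, the outer bars clipped at the axis ends. Isg15 and Bst2, the shortest members, lie above 0, and Ifit2 and Mx1 lie lowest, at -2.10 and -2.02.

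The Aoah difference was set against itself in both models through the interaction of a fit of all 12 libraries. It was larger in B16F10 than in B16mhgp100 for 9 of 10 members, with a median of 0.86, against 0.16 over all genes, and 0 of 10 passed, against 0.0302% of the 16556 genes tested. At an unadjusted p under 0.05 there were 3, Usp18 (difference of log2 differences 1.85, SE 0.49, limma adjusted p = 0.512), Bst2 (1.19, SE 0.28, limma adjusted p = 0.353) and Xaf1 (0.88, SE 0.38, limma adjusted p = 0.849). Of the 16556 genes tested, 936 stood under that unadjusted p. Ifit3 had a difference of 1.58 and Isg15 of 0.79. Without B16mhgp100 Aoah 4, Bst2 passed (1.31, limma adjusted p = 0.0292). In that fit 45 of 16261 genes passed, against 5 of 16556 with all libraries.

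Levels also differed between the models, and in Vector tumours 5 antiviral genes were lower in B16F10. All 10 log2 differences, B16F10 minus B16mhgp100, were below 0 in Vector tumours, with a median of -1.23, against -0.11 over all genes. In limma 5 of 10 fell, against 1.88% of the 16556 genes tested that passed in either direction. Ifit1 had 6.70 and 1.80 TPM in B16F10 Vector tumours, against 14.76 to 25.88 TPM in B16mhgp100 Vector tumours (log2 difference -2.17, SE 0.39, limma adjusted p = 0.0192). Isg15 had 42.39 and 23.74 TPM in B16F10 Vector tumours, against 110.58 to 172.62 TPM in B16mhgp100 Vector tumours (log2 difference -2.11, SE 0.26, limma adjusted p = 0.00257). The groups did not overlap for either gene in Vector tumours. Usp18 fell by 1.76 (SE 0.35, limma adjusted p = 0.0285), Xaf1 by 1.40 (SE 0.27, limma adjusted p = 0.0278) and Bst2 by 1.02 (SE 0.20, limma adjusted p = 0.0285) on the log2 scale. Ifit3 had -1.63 (SE 0.52, limma adjusted p = 0.191), and Ifit2, Mx1, Mx2 and Rsad2 lay between -1.07 and -0.70. The calls were sensitive to single libraries. Isg15 passed whichever Vector library was left out. The number that passed was 1 without B16mhgp100 Vector 3 or Vector 4, where 134 of 16456 and 128 of 16452 genes passed. It was 2 without B16mhgp100 Vector 1 (187 of 16275 genes) and 3 without B16mhgp100 Vector 2 (242 of 16471 genes). With a lone B16F10 Vector library, the median of the members was -1.81 without Vector 1, against -0.23 over all genes. Without B16F10 Vector 2 it was -0.93, against 0.0 over all genes.

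In Aoah tumours 2 of 10 fell in B16F10 relative to B16mhgp100, against 3.7% of all genes that passed in either direction, and the median log2 difference was -0.15, against 0.03 over all genes. Without B16mhgp100 Aoah 4 the median was -0.52, with 1 of 10 above 0, against -0.10 over all genes, and 2 passed, Ifit1 and Isg15, where 3448 of 16261 genes passed. Ifit1 had 2.11 and 1.98 TPM in B16F10 Aoah tumours, against 12.35 to 19.60 TPM in B16mhgp100 Aoah tumours (log2 difference -2.51, SE 0.39, limma adjusted p = 0.00677). Isg15 had 65.61 and 72.87 TPM in B16F10 Aoah tumours, against 158.58 to 214.92 TPM in B16mhgp100 Aoah tumours (log2 difference -1.32, SE 0.26, limma adjusted p = 0.0202). The groups did not overlap for either gene. For the other 8 the difference lay between -0.51 and 0.17. The calls did not hold with either B16F10 Aoah library left out, where a lone library stands for the group and calls over all genes fell too. Whichever Aoah library was left out, the difference lay between -2.632 and -2.424 for Ifit1 and between -1.394 and -1.218 for Isg15. By mean TPM, B16F10 Vector was the lowest of the 4 groups for 9 of 10 genes, and B16F10 Aoah was lowest for Ifit1. The lowest group overlapped the next for Ifit1, Ifit2 and Mx2. Higher in the order, neighbouring groups overlapped except between the models for Ifit1, Ifit2 and Isg15 and between B16F10 Aoah and B16mhgp100 Vector for Usp18. B16F10 Aoah was the highest group for Bst2, and its range overlapped that of B16mhgp100 Aoah.

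The wider pathway is described by counts, with the 10 members left out of each list. Of 8 genes of ISGF3 and the interferon regulatory factors, 8 were above 0 in B16F10 and 0 passed, with a median log2 difference of 1.60. Irf7, the factor that amplifies type I interferon production, stood at 50.08 and 50.52 TPM in Aoah tumours, against 17.16 and 11.97 TPM in Vector tumours (log2 difference 1.74, limma adjusted p = 0.0616). Irf8 and Irf1 had log2 differences of 3.04 and 2.19. For Irf7 the groups did not overlap. Of 9 receptors and kinases 2 were above 0 and 0 passed, with a median of -0.03, and Tyk2 had 0.50. Of the interferon ligands listed, Ifnb1 and Ifnk were in the table and neither reached the filter of 1 TPM. Ifnb1 was at 0.34 and 0.18 TPM in B16F10 Aoah tumours, against 0.18 and 0.00 TPM in B16F10 Vector tumours.

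Among sensors and adaptors, 12 of 13 were above 0 in B16F10 and 0 passed, with a median of 0.56. The largest named was Zbp1, a sensor of Z-form nucleic acid, at 90.27 and 105.0 TPM in Aoah tumours, against 23.08 and 7.16 TPM in Vector tumours (log2 difference 2.81, limma adjusted p = 0.0976). Tlr9, Dhx58 and Myd88 had 1.34, 1.67 and 0.83. Of 29 other antiviral genes 28 were above 0 and 0 passed, with a median of 0.95. Ifi35, Ifi27, Lgals3bp and Oasl2 had log2 differences of 1.60, 1.09, 0.95 and 2.07. Genes linked to interferon-gamma had the highest median of the lists, with 13 of 14 above 0, 1 that passed and a median of 1.86. The one that passed was Psmb8, an immunoproteasome subunit (log2 difference 3.18, SE 0.33, limma adjusted p = 0.0433). Psmb9, a partner subunit, had 3.03, Tap1, the peptide transporter, 2.70, and Socs1, a feedback inhibitor of JAK kinases, 2.12. Of 8 negative regulators, Socs1 among them, 7 were above 0 and 0 passed, with a median of 0.84. In the authors' deposited table for B16F10, 12 of 13 genes linked to interferon-gamma were higher with an adjusted p under 0.05. Over all genes, 8.53% passed there in either direction, against 0.344% in limma. The same authors' deposited table counted 16 of 28 other antiviral genes, 6 of 8 of ISGF3 and the regulatory factors and 0 of 9 receptors and kinases as higher. The limma counts also moved with the Vector library left out, in the fits where 3108 and 3242 of all genes passed. Without Vector 1, 13 of 14 genes linked to interferon-gamma passed as higher, with 21 of 29 other antiviral genes and 7 of 8 of ISGF3 and the regulatory factors. Without Vector 2 the counts were 13 of 14, 16 of 29 and 8 of 8. The median of receptors and kinases was 0.09 without Vector 1 and -0.23 without Vector 2.

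In B16mhgp100, 0 genes of any of these lists passed in limma. The medians lay between -0.20, for receptors and kinases, and 0.35, for ISGF3 and the regulatory factors. Without Aoah 4 still 0 passed, and every list median was above 0, between 0.0164 for receptors and kinases and 0.38 for ISGF3 and the regulatory factors. The count above 0 was then 27 of 29 other antiviral genes, against 18 of 29 with all libraries, and 12 of 14 genes linked to interferon-gamma, against 7 of 14. Among the genes named, Ifitm3, Socs1 and Zbp1 had log2 differences of 0.47, 0.73 and 0.69. Each had an unadjusted limma p under 0.05 and a limma adjusted p of 0.694. These genes were named because they had the smallest p of their lists. Over all genes, 350 of 14228 stood under that unadjusted p. In Vector tumours, more of the pathway was lower in B16F10 than in B16mhgp100. Irf7 (log2 difference -2.17), Ube2l6 (-1.63) and Zbp1 (-2.96) fell. So did 7 of 29 other antiviral genes and 4 of 14 genes linked to interferon-gamma, against 1.88% of all genes in either direction, while Il10rb, a receptor chain for interferon-lambda and interleukin-10, was higher by 1.55 (limma adjusted p = 0.0236).

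**Figure D5:**
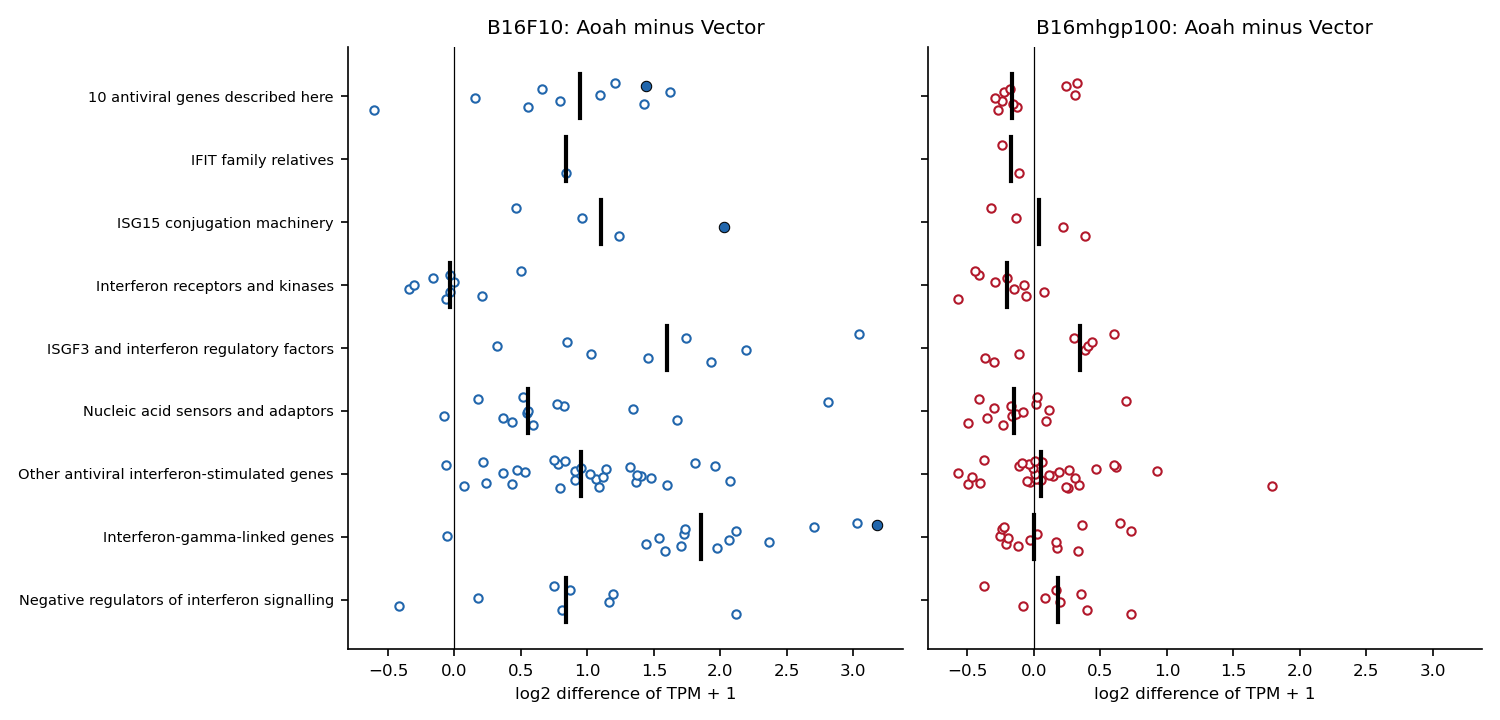
Log2 difference of TPM + 1, Aoah minus Vector, of each tested gene in B16F10 (left) and B16mhgp100 (right) for the 10 antiviral genes and 8 lists of pathway genes; filled points have a limma adjusted p below 0.05 and black bars are medians. In B16F10 the medians lie above 0 except for receptors and kinases, at -0.03, and in B16mhgp100, with Aoah 4 included, they lie between -0.20 and 0.35.

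Over the 12 libraries the 10 genes shared much of their profile. The mean of their centred log2 values was highest in B16mhgp100 Aoah 1, at 0.69, and lowest in B16F10 Vector 2, at -1.47. Ifit3 and Usp18 followed the mean of the other 9 most closely, with Pearson r of 0.93 and 0.91. Ifit1 and Bst2 followed it least, with r of 0.64 and 0.49. As a description over 12 libraries that share 4 groups and their tissue make-up, with 14804 genes ranked, the profiles most like the mean were those of Rnf213 (r = 0.987), Gbp2 (0.983), Nlrc5 (0.982), Parp14 (0.982) and Gbp3 (0.972). The 10 genes took up 0.145% to 0.155% of all TPM in B16F10 Aoah tumours and 0.0553% to 0.0632% in B16F10 Vector tumours. In B16mhgp100 their share was 0.129% to 0.172% in Aoah tumours and 0.122% to 0.151% in Vector tumours. The ranges of B16F10 did not overlap and those of B16mhgp100 did.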

How the data were processed

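Bulk polyA RNA of 12 subcutaneous tumours was sequenced, and groups were taken from the sample titles. The authors deposited expression as log2 values of TPM + 1, and per the submitters' processing notes RSEM and the mm39 build were used. Their versions are not given in these sources. Read depth per library is unknown, so no counting interval is given. The authors also deposited a DESeq2 table per model, with a mean normalised count signal, a log2 fold change, a score for its standard error and test, and a p-value with its adjusted p-value. Its fold changes matched the sign of Aoah minus Vector for 98.2% and 99.1% of genes that moved by over 1 log2 in B16mhgp100 and B16F10. A deposited immune repertoire table was not used here.

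TPM was recovered and summed to 992185 to 996590 per library. log2(TPM + 1) was tested with limma 3.58.1 in R 4.3.3, with an intensity trend, 2-sided, at a Benjamini-Hochberg adjusted p of 0.05 over all genes that reached 1 TPM in a number of libraries equal to the smaller group. Folds on this scale understate the change of low genes. Each model had its own fit, and contrasts between models came from 1 fit to the 12 libraries, with a mean for each of the 4 groups. Single members were checked with exact permutation tests in B16mhgp100. The script was tested on simulated data. The count model allowed for in the plan was not run, since the values are TPM.

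All 10 members are named in each comparison. In each pathway list up to 4 genes with the smallest p in B16F10 and up to 2 in B16mhgp100 are named, along with genes that passed; 1 item that this rule names is not reported here. The members and lists were chosen with earlier results of these data known. Alternatives were another pseudocount, no filter or one at 5 TPM, median-of-ratios scaling, array weights, no intensity trend, all 12 libraries in the fit, a replicate block, each library left out and the authors' table. Promoters are from RefSeq (GRCm38.p6), a different build from that of the expression values, and transcript lengths from GENCODE.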

Additional observations from a re-analysis of the deposited data

Results flagged for a closer look

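Ifit3 in B16mhgp100 Aoah 4, at 39.65 TPM, lay far below the other 3 Aoah libraries, with a gap to the nearest of 0.851 of the range of the group on the log2(TPM + 1) scale, above the 95% critical value of Dixon's test for 4 samples. Over the 20 groups looked at, chance gives about 1 such value in 20.

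Psmb8 differed between the models in its Aoah difference, by 2.82 on the log2 scale (limma adjusted p = 0.0433, interaction term). It stood at 758.54 and 779.92 TPM in B16F10 Aoah tumours, against 119.18 and 59.00 TPM in B16F10 Vector tumours. In B16mhgp100 it stood at 605.97, 450.61, 539.32 and 531.15 TPM in Aoah tumours, against 444.19, 318.84, 475.40 and 422.62 TPM in Vector tumours.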

How the results depend on the processing

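In B16F10, where 1 member passed, 0 passed with no filter, after median-of-ratios scaling and without the intensity trend. The count was 5 in the authors' deposited table, 5 with a replicate block and 5 with crossed numbers as a block (chosen after seeing the data). Over all genes, 910 of 14533 passed with the crossed numbers, and 765 with the replicate block. Leaving out a library gave 1 to 8. For the difference between models (0), array weights gave 1 and leaving out a B16mhgp100 library 0 to 1. Leaving out both B16mhgp100 Aoah 4 and B16F10 Vector 2 (chosen after seeing the data) left a lone Vector library in B16F10. The median of the members was then 0.34, against -0.11 over all genes. For B16F10 minus B16mhgp100, Vector tumours (5) gave 3 with no filter and 1 to 4 with a library left out, and Aoah tumours (2) gave 5 with array weights and 0 to 2 with a library left out. B16mhgp100 stayed at 0 under every alternative run. Over all genes the B16F10 count of 50 was 32 with a pseudocount of 0.1, 0 with no filter, 80 with a filter at 5 TPM, 128 after median-of-ratios scaling, 115 with array weights, 16 without the trend, 765 with the block and 234 to 3242 with a library left out. The B16mhgp100 count of 0 was 5 with array weights and 0 to 1 with a library left out. The count of 5 for the difference was 46 with no filter, 31 with array weights, 2 with the block and 1 to 45 with a library left out. Of Vector tumours the count of 312 was 515 with array weights and 50 to 242 with a library left out, and of Aoah tumours that of 612 was 1347 after median-of-ratios scaling, 6160 with array weights and 30 to 3448 with a library left out. The cause was not tested.

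Signs turned for small differences. In B16mhgp100, median-of-ratios scaling gave Ifit2 0.068, Ifit3 0.0503 and Rsad2 0.018, and array weights gave Ifit2 0.46, Ifit3 0.0947, Mx2 0.123, Usp18 0.0864 and Rsad2 0.0679. With libraries left out the ranges were -0.42 to 0.44 for Ifit2, -0.35 to 0.25 for Ifit3, -0.53 to 0.27 for Mx1, -0.51 to 0.0774 for Mx2, -0.37 to 0.13 for Rsad2 and -0.39 to 0.0512 for Usp18. In B16F10 they were -1.34 to 0.12 for Ifit1, -0.11 to 1.22 for Ifit2 and -0.30 to 0.61 for Mx2. For the difference between models they were -1.07 to 0.39 for Ifit1, 0.0153 to 1.35 for Ifit2 and -0.0068 to 0.91 for Mx2, and without both named libraries Ifit1 was -1.08, Ifit2 -0.55 and Mx2 -0.38. Between the Aoah tumours of the models, Mx1 was 0.0325 with a pseudocount of 0.1, Rsad2 was -0.0046 after median-of-ratios scaling, and array weights gave Usp18 -0.25 and Rsad2 -0.30. With libraries left out the ranges there were -0.44 to 0.15 for Ifit3, -0.54 to 0.26 for Mx1, -0.24 to 0.26 for Rsad2 and -0.19 to 0.25 for Usp18.

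The labels do not state that the replicate numbers pair the libraries. Deviations of same-numbered libraries correlated at -0.33 to -0.02 across genes in B16mhgp100 and at -0.28 in B16F10, and 0 of 8 B16mhgp100 libraries correlated best with their own number. In B16F10, with 2 libraries per group, both numbers give the same value by construction. These correlations cannot show whether the libraries were paired. With the replicate block, 5 members passed in B16F10 and 0 in B16mhgp100. The block leaves fewer degrees of freedom.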
